A study of Homo sapiens with 15 samples.

Results

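The genes described here are 43 genes that a dividing cell uses to copy and to separate its chromosomes, out of 33367 genes that had a transcript in the annotation. They and the other gene lists below were chosen by name, with earlier results of these data known. Their shares of called genes, set against all genes, are therefore descriptions only. Of the 43, 16 are replication genes (the MCM helicase subunits, loading and firing factors, the clamp PCNA, enzymes of nucleotide synthesis and CCNE2) and 27 are mitotic genes (cyclins, kinases, spindle and centromere proteins). Before a cell copies its DNA, CDC6 and CDT1 load the MCM ring onto replication origins, and CDC45 with the GINS complex then turns the ring into a working helicase. Transcripts of these genes typically peak as cells enter S phase, under E2F factors, whereas those of mitotic genes peak later, in G2 and M phase, under the MuvB complex with MYBL2 and FOXM1. B-lymphoblastic leukaemia lines grow continuously, so both sets are expressed throughout a culture.

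RNA came from Reh cells, sequenced as 15 libraries. Reh is a patient-derived human line of B-lymphoblastic leukaemia, in which ETV6 is fused to RUNX1 and the normal ETV6 copy is known to be lost. In the first experiment, cell populations carried a doxycycline-inducible (DoxOn) vector for V5-tagged wild-type ETV6 (ETV6-WT), for V5-tagged ETV6 with the R399C change in its ETS DNA-binding domain (ETV6-R399C), or for V5-tagged tagBFP, a blue fluorescent protein that served as the control. All 3 received doxycycline at 500 ng/ml for 48 h. In the second, populations with stably integrated, doxycycline-inducible dCas9-KRAB, a catalytically dead Cas9 fused to a transcriptional repressor, were transduced with a fluorescent guide RNA vector against the ERG promoter (sgERG) or a non-targeting one (sgCtrl). They were sorted and then received the same dose of doxycycline for 72 h. Each of the 5 groups had 3 libraries. The labels call them transduced populations, name no clones, and do not say whether replicates were separate cultures, so p-values measure only the spread between libraries.

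Library totals were 22040338 to 52481351 estimated reads, and members had up to 43859 reads in a library (MKI67), while CCNE2, the least read, averaged 853. ETV6 stood at 486 ± 18.1 CPM (each gene's estimated reads as a share of 1e6 library reads, scaled within each experiment; SD, n = 3) in ETV6-WT cells and 373 ± 14.7 CPM in ETV6-R399C cells, against 5.86 ± 0.327 CPM in tagBFP cells. ERG stood at 105.1 ± 4.14 CPM in sgERG cells, against 525 ± 6.35 CPM in sgCtrl cells. Each target also moved in the other experiment: ETV6 fell to 6.56 ± 0.513 CPM in sgERG cells, against 13.2 ± 1.25 CPM in sgCtrl cells (edgeR adjusted p = 7.0e-05), and ERG was at 328 ± 7.09 CPM in ETV6-WT cells, against 302 ± 5.46 CPM in tagBFP cells (log2 fold change 0.12 ± 0.03, edgeR adjusted p = 0.0032). Of 13 B-lineage precursor markers, 12 exceeded 1 TPM (the deposited transcript share, corrected for length) in every group and VPREB1 was listed at 0. Their summed level was 5679 to 5733 TPM in ETV6-WT, 5536 to 5560 TPM in ETV6-R399C and 4187 to 4279 TPM in tagBFP cells, and 4576 to 4672 TPM in sgERG against 4769 to 4888 TPM in sgCtrl cells. Of the 12 that were tested, edgeR called 11 higher with ETV6-WT and 10 higher with ETV6-R399C. These shares, 91.7% and 83.3%, stood against 17.6% and 18.8% of all genes. In ETV6-WT relative to ETV6-R399C cells, 6 were higher and 1, CD79A, was lower. With sgERG, 2 were higher (PAX5 and CD24) and 4 lower (CD22, DNTT, VPREB3 and MME), or 16.7% and 33.3% against 6.89% and 7.74% of all genes. None of 5 T cell and none of 4 erythroid markers reached 1 TPM in any group, counted by group mean. Below that level, edgeR called the T cell marker TRAT1 higher with ETV6-WT, at 0.41 ± 0.0536 TPM against 0.174 ± 0.0321 TPM in tagBFP cells. DESeq2 called 0 T cell markers higher with ETV6-WT. The summed level of 5 myeloid markers was 24.4 to 26.9 TPM in ETV6-WT, 20.3 to 21.9 TPM in ETV6-R399C and 17.3 to 17.9 TPM in tagBFP cells, and 19.6 to 22.9 TPM in sgERG against 18.9 to 20.4 TPM in sgCtrl cells. These markers did not move together. By edgeR, CSF1R was higher and ITGAM lower with ETV6-WT, and LYZ higher and ITGAM lower with ETV6-R399C. CSF1R had 20.7 ± 2.08 TPM in ETV6-WT and 11.7 ± 0.321 TPM in tagBFP cells, and ITGAM had 2.59 ± 0.882 and 3.94 ± 0.75 TPM. In ETV6-R399C cells ITGAM had 3.84 ± 1.84 TPM, close to tagBFP cells. LYZ had 1.11 ± 0.273 TPM there, against 0.597 ± 0.126 TPM in tagBFP cells. DESeq2 called 0 myeloid markers higher and 0 lower with ETV6-R399C. The summed level of 5 epithelial or fibroblast markers was at most 33.2 TPM, in sgERG cells. There COL1A1 had 31.5 ± 2.46 TPM, against 24.7 ± 3.6 TPM in sgCtrl cells. Another of them, KRT8, was called higher by edgeR with both ETV6 forms. It had 4.0 ± 1.82 TPM in ETV6-WT and 6.35 ± 1.07 TPM in ETV6-R399C cells, against 1.96 ± 0.203 TPM in tagBFP cells. The part of these marker levels in the results was not tested. In bulk RNA, fewer cells in a phase of the cycle and less RNA per cell cannot be told apart.

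Promoter sequences are shown for a pair of replication genes that moved in opposite directions under both ETV6 forms, GINS2 and CDT1, and for the mitotic genes MKI67 and BUB1, which had among the largest mitotic increases. Each is the 250 bases before the RefSeq start site on GRCh38.p14, written 5′ to 3′ on the strand of the gene. Capitals mark matches, on either strand, to the E2F letters TTTCCCGC, TTTGGCGC, TTTCGCGC or TTTGGCGG, to the CHR letters TTTGAA or TTCGAA (CHR, the cell cycle genes homology region that MuvB binds), or to CCAAT, the letters bound by NF-Y.
GINS2 (chr16:85688955-85689204, minus strand): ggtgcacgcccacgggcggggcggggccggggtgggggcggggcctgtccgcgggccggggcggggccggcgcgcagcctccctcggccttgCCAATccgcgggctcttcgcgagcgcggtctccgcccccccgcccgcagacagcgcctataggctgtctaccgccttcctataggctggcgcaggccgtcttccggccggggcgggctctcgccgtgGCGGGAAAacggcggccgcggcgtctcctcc
CDT1 (chr16:88803539-88803788, plus strand): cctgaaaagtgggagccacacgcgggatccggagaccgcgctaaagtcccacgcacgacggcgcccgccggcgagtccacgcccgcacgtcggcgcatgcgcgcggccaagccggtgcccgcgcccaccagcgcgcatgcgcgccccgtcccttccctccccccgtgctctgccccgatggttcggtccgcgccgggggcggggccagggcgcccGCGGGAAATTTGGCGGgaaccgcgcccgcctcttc
MKI67 (chr10:128126424-128126673, minus strand): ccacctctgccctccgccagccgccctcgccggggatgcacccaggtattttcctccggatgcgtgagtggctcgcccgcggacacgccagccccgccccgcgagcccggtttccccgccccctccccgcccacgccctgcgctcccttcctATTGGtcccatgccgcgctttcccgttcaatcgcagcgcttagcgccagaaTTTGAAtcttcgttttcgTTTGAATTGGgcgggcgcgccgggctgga
BUB1 (chr2:110678064-110678313, minus strand): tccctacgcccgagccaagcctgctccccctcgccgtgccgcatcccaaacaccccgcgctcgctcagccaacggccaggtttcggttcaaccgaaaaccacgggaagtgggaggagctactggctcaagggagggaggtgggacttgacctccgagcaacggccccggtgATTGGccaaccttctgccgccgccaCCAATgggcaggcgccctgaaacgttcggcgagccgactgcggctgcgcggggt
The GINS2 window held 1 E2F match, starting 31 bases before the start, and 1 CCAAT match at 158. CDT1 held 2 E2F matches side by side, at 35 and 27 bases before the start, and no CHR or CCAAT match. MKI67 held CHR matches at 47 and 29 bases and CCAAT matches at 98 and 24 bases, of which the last CHR and CCAAT matches share a single base. BUB1 held CCAAT matches at 79 and 54 bases, and its CHR match began at base 2 counted from the start, outside the printed stretch.

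The 2 classes differed in these letters. Promoter windows of 250 bases before to 50 after the start were found in the RefSeq table for 34 of the 43 members, 13 replication and 21 mitotic genes. E2F letters were in 11 of 13 replication genes (84.6%) and 4 of 21 mitotic genes (19.0%), against 4.05% of the 27305 genes in the table. CHR letters ran the other way, with 2 of 13 replication genes (15.4%), MCM6 and RRM1, and 16 of 21 mitotic genes (76.2%), against 19.5% of all genes. CCAAT was in 10 of 13 and 19 of 21, against 39.7% of all genes. The ETS-type letters CCGGAAGT or ACAGGAAGT, of the kind that ETV6 and ERG bind, were found in 0 of 13 replication genes and in 1 of 21 mitotic genes, KIF23, against 5.93% of all genes. The paired GGAAGGAA was in none of the 34, against 4.5% of all genes. A match is a run of letters and not a tested site, and no match says only that the letters are not in this window.

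**Figure D1:**
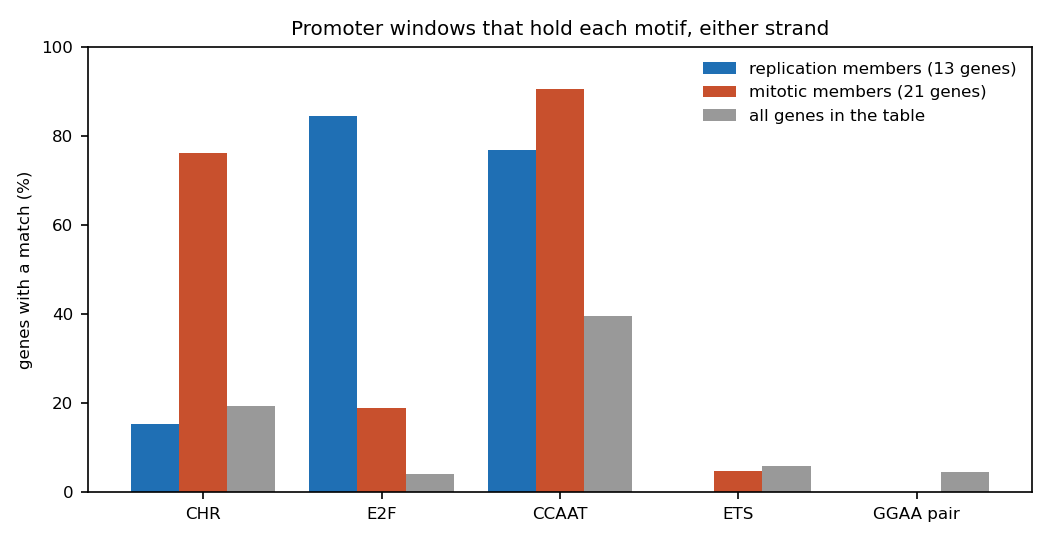
Percentage of genes (vertical axis, from 0) with each motif in a 300-base promoter window, for replication members, mitotic members and all genes in the RefSeq table; GGAA pair is GGAAGGAA. E2F letters stand at 84.6% in replication members and CHR letters at 76.2% in mitotic members.

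With wild-type ETV6, the mitotic genes called with all libraries were all higher. Replication genes were called lower at a share near that of all genes. Tested with edgeR (quasi-likelihood, p-values adjusted by Benjamini-Hochberg over all 14242 genes tested, called below 0.05), 9 of 27 mitotic members rose in ETV6-WT cells relative to tagBFP cells and none fell. Of 16 replication members, CDT1 rose and MCM6, CDC6, GINS2 and RRM1 fell. The share of all genes called was 36.5%, with 17.6% higher and 18.9% lower. Mitotic members were thus called higher in 33.3% of cases against 17.6% of all genes, while replication members were called lower in 25.0% against 18.9%, near the background. At an unadjusted p below 0.05, 12 mitotic members were higher and 0 lower, and DESeq2 called 10 higher and 0 lower. The absence of decreases depended on the processing. Without ETV6-WT replicate 1, edgeR called 8 mitotic members higher and 1 lower, and 2 were lower at an unadjusted p below 0.05. At that threshold 2 were also lower without tagBFP replicate 2, and 1 without the filter on low counts. The changes were small: the median log2 fold change was 0.05 for mitotic and 0.02 for replication members, against 0.00 over all genes, and no member passed 0.22 in either direction.

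CDT1, the MCM loading factor, had 225, 230 and 236 CPM in ETV6-WT cells, against 202, 199 and 191 CPM in tagBFP cells. Every ETV6-WT library was above every tagBFP library (log2 fold change 0.22 ± 0.03 SE, edgeR adjusted p = 2.2e-04). GINS2, a subunit of the GINS complex, had 99.01, 102.84 and 100.07 CPM in ETV6-WT cells, against 109, 110 and 119 CPM in tagBFP cells. Here the groups were also apart, in the other direction (log2 fold change -0.16 ± 0.05, edgeR adjusted p = 0.0154). CDC6, the partner of CDT1 in loading MCM rings, fell as well, with 145, 149 and 146 CPM in ETV6-WT cells, against 159, 160 and 158 CPM in tagBFP cells (log2 fold change -0.12 ± 0.03, edgeR adjusted p = 0.00639). MCM6 and RRM1, a helicase subunit and the large subunit of ribonucleotide reductase, fell by 0.10 and 0.09 on the log2 scale.

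Among mitotic genes, BUB1, a kinase of the spindle checkpoint, had 237, 236 and 224 CPM in ETV6-WT cells, against 195, 198 and 210 CPM in tagBFP cells. The groups did not overlap (log2 fold change 0.21 ± 0.03, edgeR adjusted p = 4.2e-04). TOP2A, the topoisomerase that untangles sister chromatids, had 827, 793 and 776 CPM in ETV6-WT cells, against 714, 705 and 672 CPM in tagBFP cells, again without overlap (log2 fold change 0.20 ± 0.03, edgeR adjusted p = 4.5e-04). NUSAP1, a microtubule-bundling spindle protein, had 393, 384 and 392 CPM in ETV6-WT cells, against 336, 334 and 352 CPM in tagBFP cells (log2 fold change 0.19 ± 0.03, edgeR adjusted p = 1.7e-04). The 3 ETV6-WT libraries of NUSAP1 were all above the highest tagBFP library. BIRC5, the survivin of the chromosomal passenger complex, was at 174, 177 and 176 CPM in ETV6-WT cells, against 158, 154 and 163 CPM in tagBFP cells (log2 fold change 0.15 ± 0.03, edgeR adjusted p = 0.00151). The motor KIF11, the kinetochore motor CENPE, the Aurora A activator TPX2, the transcription factor FOXM1 and CCNF, the cyclin of an SCF ubiquitin ligase, made up the rest of the 9, with log2 fold changes of 0.10 to 0.19. The B-type cyclins did not pass the test: CCNB1 had a log2 fold change of -0.05 ± 0.04 and CCNB2 one of 0.04 ± 0.04. FOXM1 lost its call in 7 of 12 alternative analyses, and the 4 replication decreases lost theirs when transcript lengths were modelled.

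With ETV6-R399C, most replication genes that changed were lower, and the mitotic genes that changed were split. In ETV6-R399C cells relative to tagBFP cells, 9 of 16 replication members fell (MCM3, MCM4, MCM6, CDC6, CDC45, GINS2, PCNA, RRM1 and TYMS) and CDT1 rose. Of 27 mitotic members, 4 rose (MKI67, KIF11, NUSAP1 and CCNF) and 6 fell (CCNA2, CCNB1, CDK1, CDC20, PLK1 and AURKA). Of all genes, 40.9% were called, 18.8% higher and 22.1% lower. The share of replication members called lower, 56.2%, stood above that background, and the mitotic shares of 14.8% higher and 22.2% lower stood near it. The median log2 fold change was -0.10 for replication members and -0.02 for mitotic members. The tagBFP libraries are the same ones that ETV6-WT was set against, so the 2 comparisons are not independent.

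GINS2 had 84.3, 83.5 and 92.8 CPM in ETV6-R399C cells, against 109, 110 and 119 CPM in tagBFP cells. All ETV6-R399C libraries were below all tagBFP libraries, and the log2 fold change of -0.37 ± 0.05 (edgeR adjusted p = 6.3e-05) was the largest of any member in the 4 comparisons. MCM4, a subunit of the MCM ring, had 484, 489 and 521 CPM in ETV6-R399C cells, against 587, 582 and 575 CPM in tagBFP cells (log2 fold change -0.22 ± 0.03, edgeR adjusted p = 9.6e-05). CDC6 had 136, 134 and 142 CPM in ETV6-R399C cells, against 159, 160 and 158 CPM in tagBFP cells (log2 fold change -0.21 ± 0.03, edgeR adjusted p = 1.1e-04). CDC45, which joins the MCM ring at firing origins, had 97.7, 96.3 and 98.8 CPM in ETV6-R399C cells, against 111, 110 and 113 CPM in tagBFP cells (log2 fold change -0.19 ± 0.03, edgeR adjusted p = 1.3e-04). PCNA, the sliding clamp of the polymerases, had 528, 523 and 570 CPM in ETV6-R399C cells, against 588, 596 and 635 CPM in tagBFP cells (log2 fold change -0.17 ± 0.04, edgeR adjusted p = 0.00417). For MCM4, CDC6, CDC45 and PCNA alike, no ETV6-R399C library reached the lowest tagBFP library, and ETV6-R399C replicate 3 was the highest of its group each time. CDT1 was the exception among replication genes, with 242, 248 and 234 CPM in ETV6-R399C cells against 202, 199 and 191 CPM in tagBFP cells (log2 fold change 0.29 ± 0.03, edgeR adjusted p = 2.7e-05).

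MKI67, the proliferation antigen Ki-67 that coats mitotic chromosomes, had 1016, 997 and 979 CPM in ETV6-R399C cells, against 860, 891 and 773 CPM in tagBFP cells. The groups were apart (log2 fold change 0.25 ± 0.05, edgeR adjusted p = 0.00287). ETV6-WT libraries had 863, 959 and 960 CPM and overlapped the tagBFP libraries (log2 fold change 0.14 ± 0.05, edgeR adjusted p = 0.0565). CCNF had 171, 169 and 177 CPM in ETV6-R399C cells and 176, 180 and 177 CPM in ETV6-WT cells, against 162, 156 and 148 CPM in tagBFP cells. It rose with both forms (log2 fold change 0.15 ± 0.03, edgeR adjusted p = 0.00481 for ETV6-R399C and 0.19 ± 0.03, edgeR adjusted p = 0.00112 for ETV6-WT). CCNB1, the cyclin that drives entry into mitosis, had 169, 168 and 177 CPM in ETV6-R399C cells, against 186, 186 and 201 CPM in tagBFP cells (log2 fold change -0.15 ± 0.04, edgeR adjusted p = 0.00911). Its kinase partner CDK1 changed by the same -0.15 ± 0.04 (edgeR adjusted p = 0.0135), and CCNA2, CDC20, PLK1 and AURKA fell by 0.10 to 0.12 on the log2 scale. The AURKA call held in 0 of 12 alternative analyses, and all 6 mitotic decreases lost their call when ETV6-R399C replicate 1 was left out, which left 12 members called instead of 20. Of the 10 replication calls, 8 remained without that library. When transcript lengths were modelled, CDK1 was the only one of the 6 mitotic decreases that kept its call. MCM6, RRM1 and NUSAP1 lost theirs as well.

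**Figure D2:**
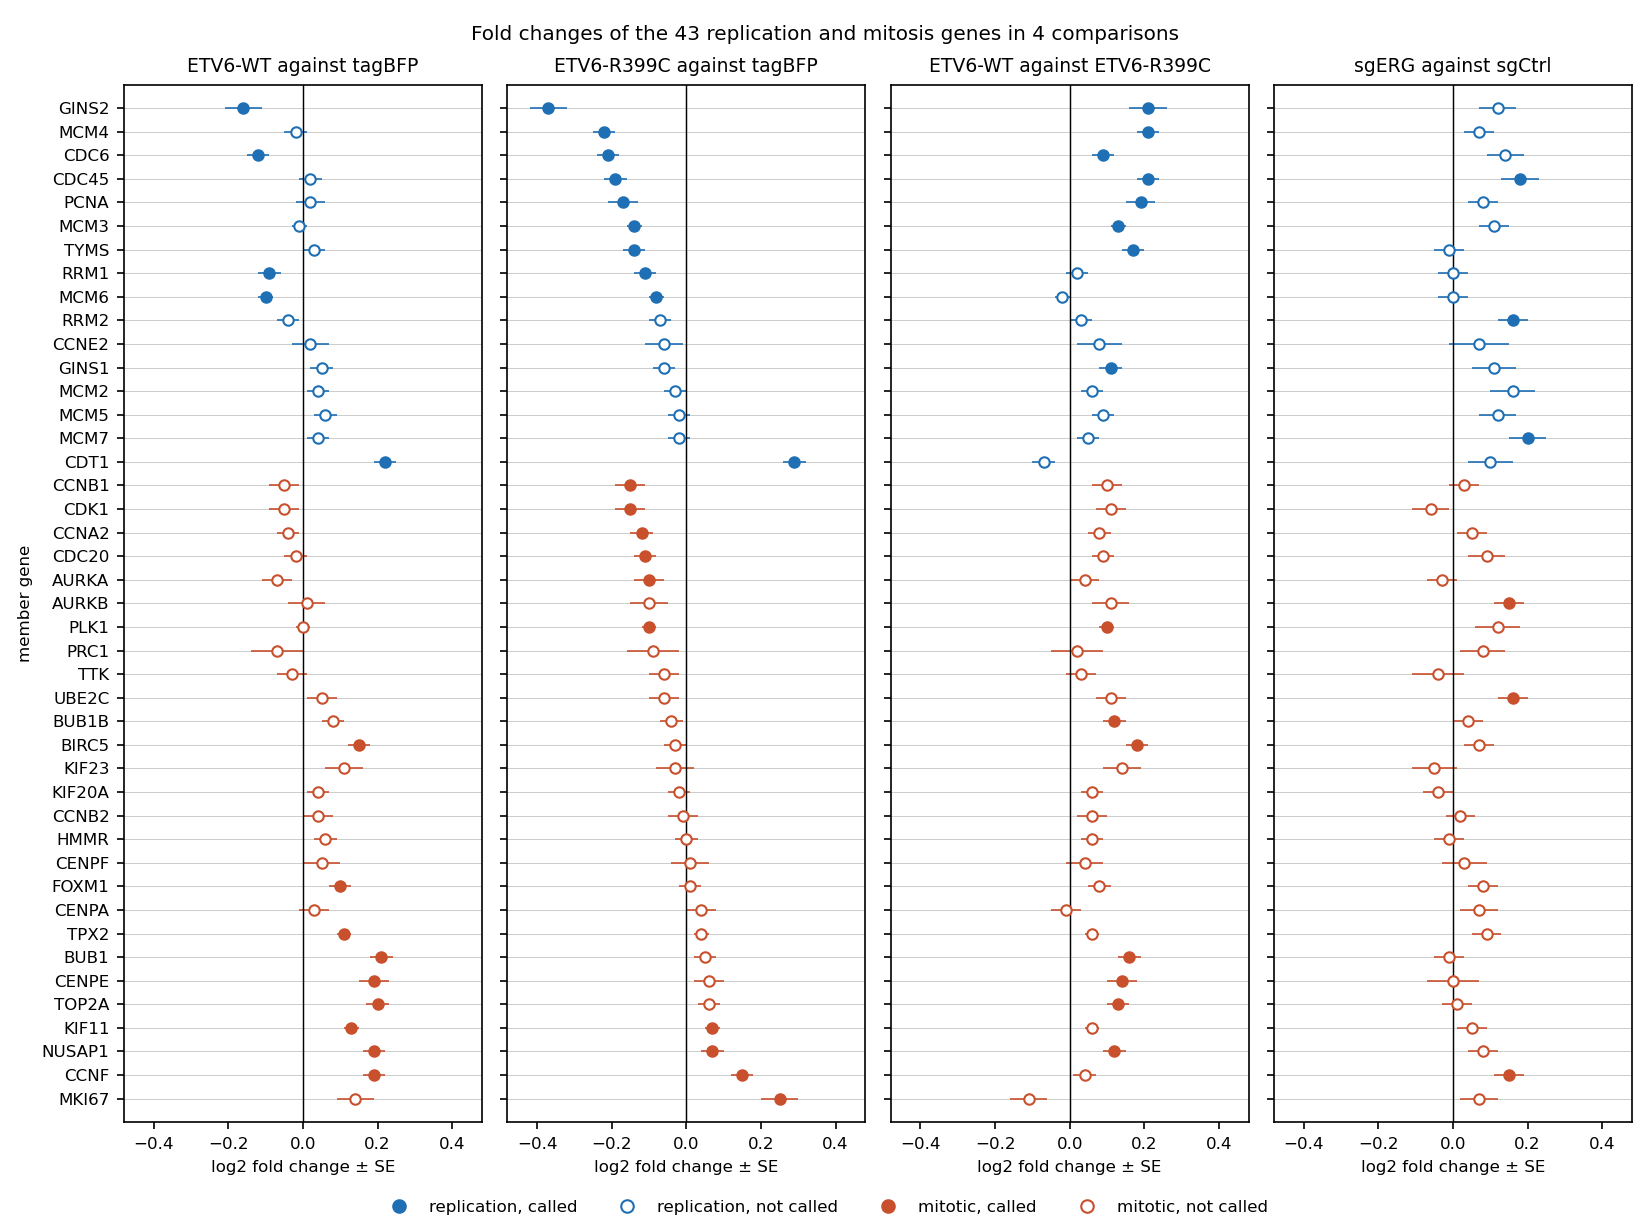
Log2 fold change with its standard error (horizontal axis) of the 43 members (rows, replication in blue, mitotic in orange, ordered by the ETV6-R399C comparison) in 4 comparisons; filled points passed an adjusted p of 0.05. Replication members lie mostly left of 0 with ETV6-R399C, where CDT1 alone is called to the right (0.29), and no called point lies left of 0 in the ETV6-WT against ETV6-R399C and sgERG against sgCtrl panels.

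The direct test of the 2 forms showed higher levels with wild-type ETV6 in both classes, with less stable calls in the mitotic class. In ETV6-WT cells relative to ETV6-R399C cells, 8 of 16 replication members were higher (MCM3, MCM4, CDC6, CDC45, GINS1, GINS2, PCNA and TYMS) and 7 of 27 mitotic members were higher (PLK1, BUB1, BUB1B, TOP2A, BIRC5, CENPE and NUSAP1). None was lower by edgeR in either class, also at an unadjusted p below 0.05, where 9 replication and 18 mitotic members were higher. At that unadjusted threshold the absence of decreases depended on the processing. In each class 1 member was lower with RLE or upper-quartile scaling of libraries, without the filter on low counts, and with DESeq2. DESeq2 called 6 and 7 members higher and 0 lower. Of all genes, 21.4% were called in this comparison, 12.1% higher and 9.29% lower, against 8 of 16 replication members and 25.9% of mitotic members called higher. The median log2 fold change was 0.09 in replication and 0.08 in mitotic members, and 0.02 over all genes. ETV6 mRNA itself was higher in ETV6-WT cells, at 486 CPM against 373 CPM in ETV6-R399C cells, and its part in these differences was not tested.

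MCM4, with 575, 577 and 570 CPM in ETV6-WT cells against 484, 489 and 521 CPM in ETV6-R399C cells, showed one of the largest differences (log2 fold change 0.21 ± 0.03, edgeR adjusted p = 4.9e-04). CDC45 had 113, 114 and 113 CPM in ETV6-WT cells and 97.7, 96.3 and 98.8 CPM in ETV6-R399C cells (log2 fold change 0.21 ± 0.03, edgeR adjusted p = 1.9e-04). In both genes the ETV6-WT libraries were clear of all ETV6-R399C libraries, and against tagBFP they had log2 fold changes of -0.02 ± 0.03 and 0.02 ± 0.03 that did not pass the test. PCNA and TYMS, the thymidylate synthase, differed by 0.19 ± 0.04 and 0.17 ± 0.03 (edgeR adjusted p = 0.00506 and 0.00104). BIRC5 had 174, 177 and 176 CPM in ETV6-WT cells against 154, 153 and 158 CPM in ETV6-R399C cells (log2 fold change 0.18 ± 0.03, edgeR adjusted p = 0.00104). BUB1 differed by 0.16 ± 0.03 (edgeR adjusted p = 0.00588) and CENPE by 0.14 ± 0.04 (edgeR adjusted p = 0.0207). CDT1, which rose with both forms, and MKI67 had fold changes of the other sign, -0.07 ± 0.03 and -0.11 ± 0.05, that did not pass the test (edgeR adjusted p = 0.155 and 0.187). Fewer calls remained without single libraries: 8 members without ETV6-R399C replicate 1, and 7 each without ETV6-WT replicate 1 or replicate 2. Mitotic calls were lost more than replication calls. Without ETV6-R399C replicate 1, 5 replication and 3 mitotic members were called. It was 6 and 1 without ETV6-WT replicate 1, and 5 and 2 without ETV6-WT replicate 2. With transcript lengths modelled, 5 replication and 2 mitotic members were called. The 6 calls present in every alternative analysis were MCM3, MCM4, CDC45, PCNA, TYMS and, as the only mitotic gene, BIRC5.

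**Figure D3:**
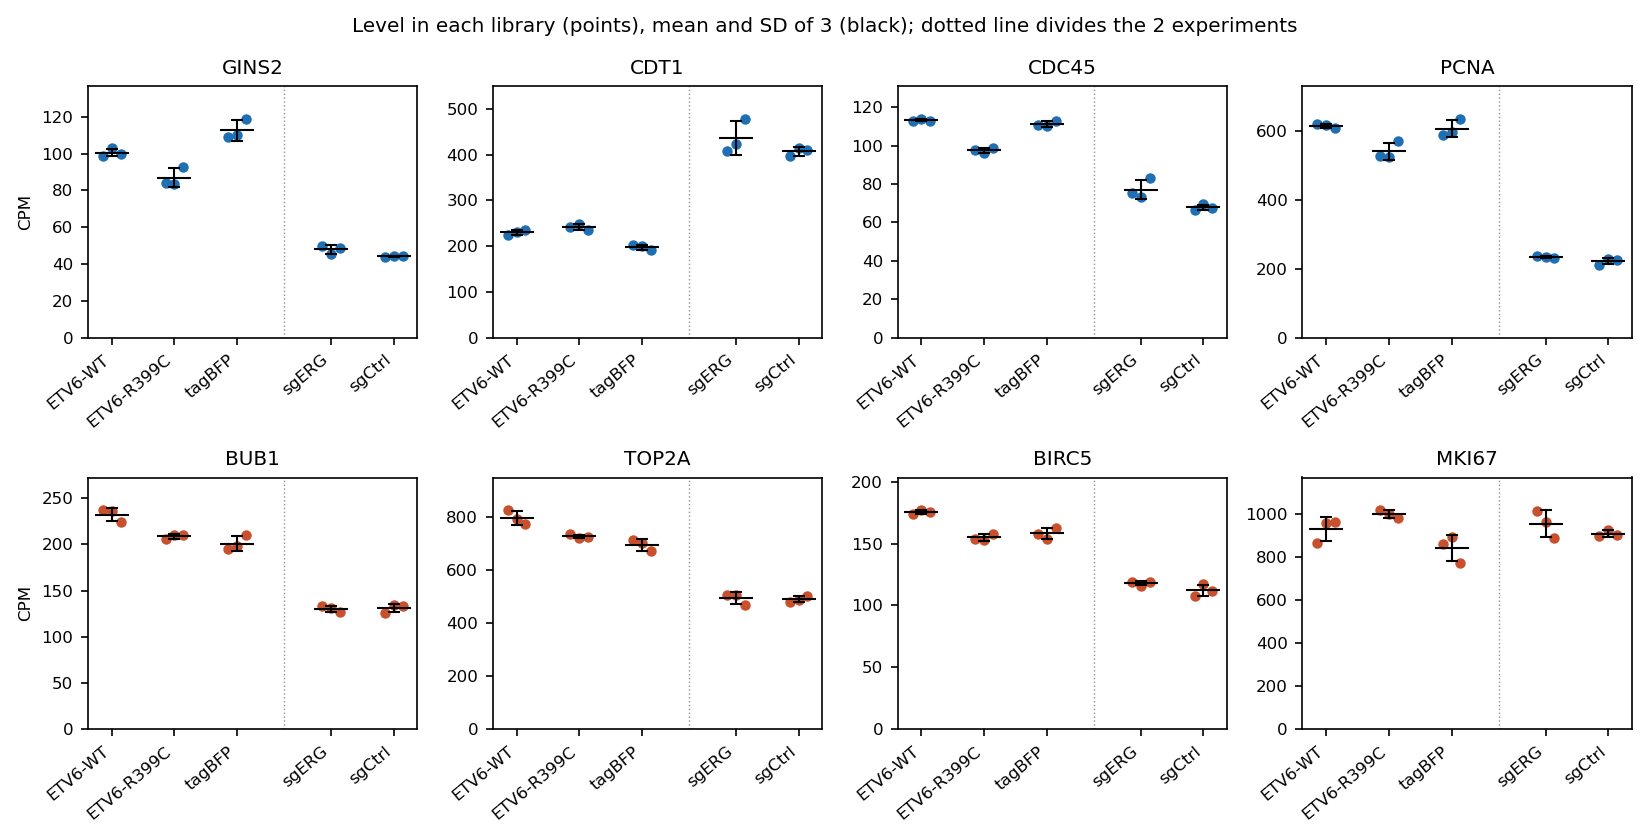
CPM (vertical axis, from 0) of 8 members in each of the 15 libraries, with the mean and SD of 3 libraries in black; the dotted line divides experiments that were scaled separately. GINS2, CDC45 and PCNA are lowest in ETV6-R399C within their experiment, while CDT1 is lowest in tagBFP.

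As a summary by library, the mean of log2(CPM + 1) over the replication members minus that over the mitotic members was 0.47, 0.49 and 0.48 in ETV6-WT cells and 0.45, 0.44 and 0.49 in ETV6-R399C cells, against 0.55 in each of the 3 tagBFP libraries. Both ETV6 forms thus lay below tagBFP in every library. In ETV6-WT cells the mitotic mean was 7.64 to 7.66, against 7.57 to 7.60 in tagBFP cells, and the replication mean was 8.12 to 8.14 in ETV6-WT cells, against 8.13 to 8.15 in tagBFP cells. In ETV6-R399C cells the replication mean was 8.01 to 8.08, below all tagBFP libraries, and the mitotic mean of 7.56 to 7.59 overlapped them. All 43 members together took 1.27 to 1.28% of gene-assigned reads in ETV6-WT cells and 1.23 to 1.25% in ETV6-R399C cells, against 1.22 to 1.25% in tagBFP cells.

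**Figure D4:**
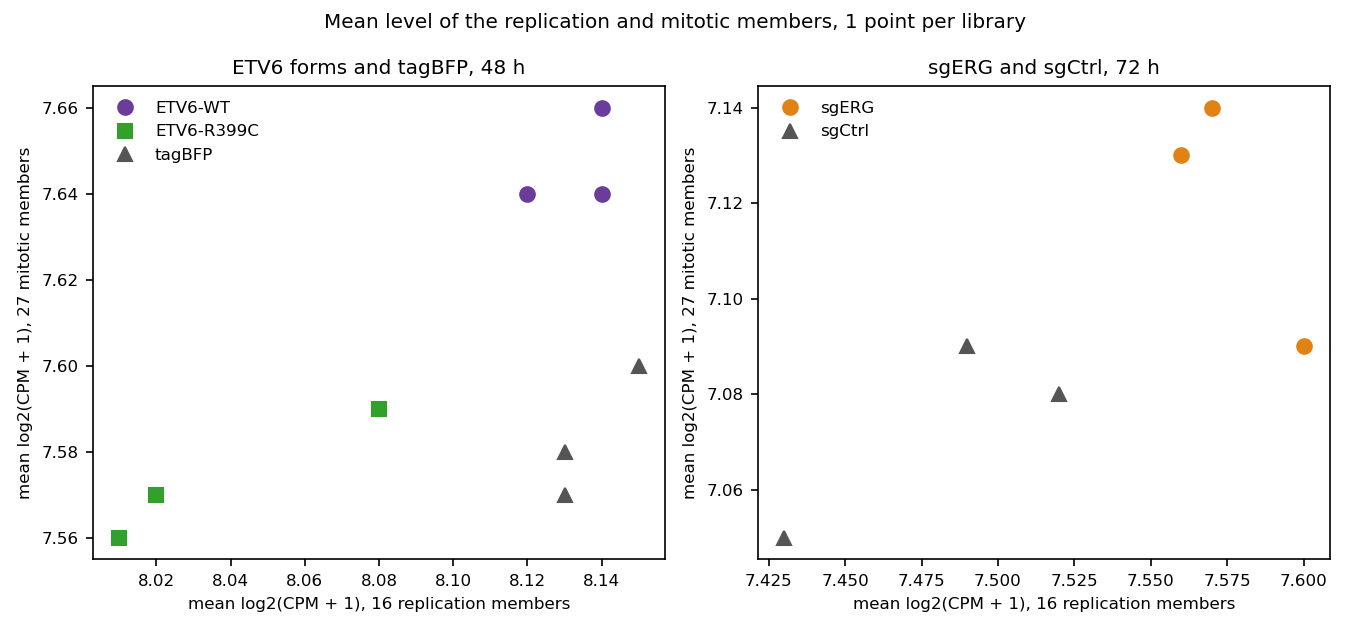
Mean log2(CPM + 1) of the 16 replication members (horizontal axis) and of the 27 mitotic members (vertical axis), 1 point per library, in the ETV6 experiment (left) and the ERG guide experiment (right); axes do not start at 0. ETV6-WT libraries stand above the rest on the mitotic axis (7.64 to 7.66) and ETV6-R399C libraries to the left on the replication axis (8.01 to 8.08).

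In several libraries the members deviated from their group mean by transcript length. In tagBFP replicate 3, deviations of the 43 members from the tagBFP mean fell with log2 effective length (Pearson r = -0.74 across members, which share 1 library). The r of 0.68 and 0.56 in tagBFP replicates 1 and 2 are not separate evidence, since all 3 are centred on the same mean. In the same experiment, r was 0.55 in ETV6-WT replicate 2, 0.44 in ETV6-R399C replicate 1 and -0.26 to -0.08 in the other ETV6-WT and ETV6-R399C libraries. The 5 members over 4000 bases (TOP2A, MKI67, CENPE, CENPF and KIF11) averaged -0.07 on the log2 scale in that library. Its mitochondrially encoded share was 1.42% of reads, against 1.16 to 1.18% in the other tagBFP libraries. Without tagBFP replicate 3, the ETV6-WT fold change was 0.15 for TOP2A, 0.14 for CENPE and 0.12 for KIF11, all still called, 0.07 for MKI67 and -0.03 for CENPF, a centromere protein that was at 0.05 with all libraries and not called in either case. The MKI67 rise with ETV6-R399C was 0.19 (edgeR adjusted p = 0.00544) without it. In all, 15 members were called for ETV6-WT and 20 for ETV6-R399C without that library.

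**Figure D5:**
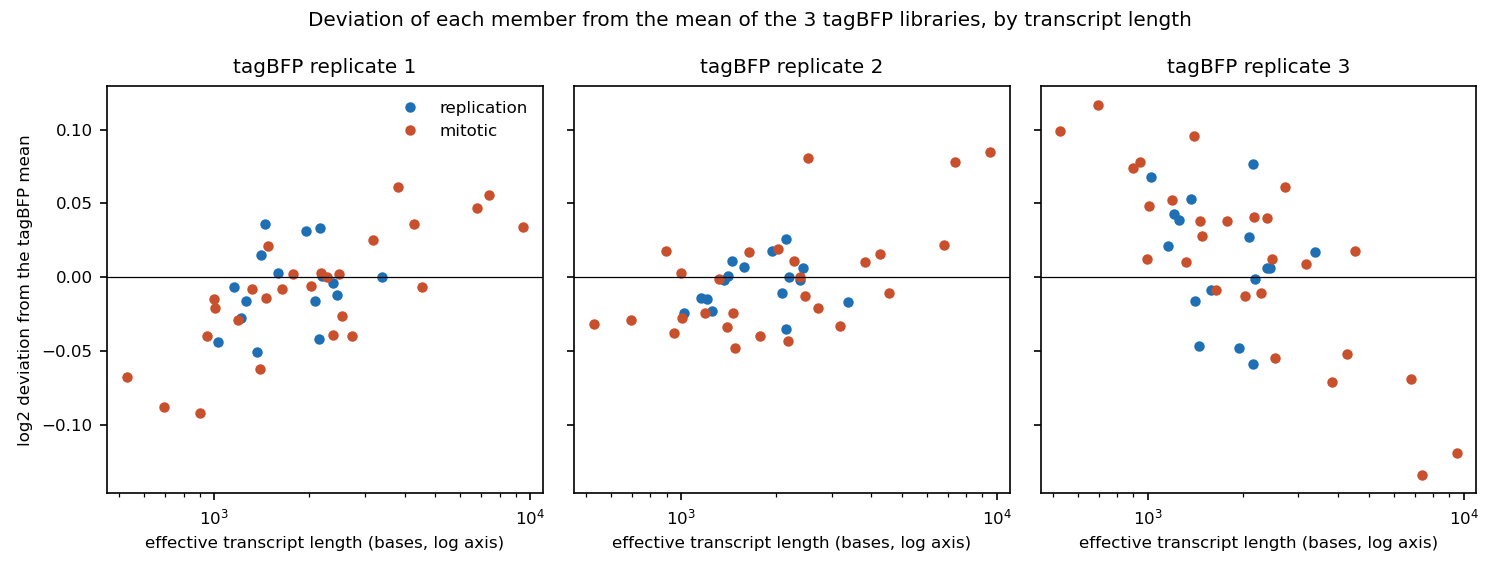
Log2 deviation of each of the 43 members from the mean of the tagBFP libraries (vertical axis) by effective transcript length in bases (horizontal log axis), 1 panel per tagBFP library. Points run upward with length in replicates 1 and 2 (r = 0.68 and 0.56) and downward in replicate 3 (r = -0.74), where centring on the mean of the 3 ties these trends to one another.

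Repression of ERG was accompanied by small increases that depended on single libraries. In sgERG cells relative to sgCtrl cells, 3 of 16 replication members (MCM7, CDC45 and RRM2) and 3 of 27 mitotic members (AURKB, UBE2C and CCNF) were higher and none was lower, by edgeR over 13464 genes. At an unadjusted p below 0.05, 8 replication and 4 mitotic members were higher and 0 lower, and DESeq2 called 4 and 3 higher and 0 lower. Of all genes, 14.6% were called, 6.89% higher and 7.74% lower, against 18.8% of replication and 11.1% of mitotic members called higher. Median log2 fold changes were 0.11 for replication and 0.05 for mitotic members. No member was called by edgeR without sgCtrl replicate 1 or without sgCtrl replicate 3, where 6 and 7 members were higher at an unadjusted p below 0.05 and 0 lower.

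MCM7, a subunit of the MCM ring, had 538, 528 and 590 CPM in sgERG cells, against 460, 496 and 484 CPM in sgCtrl cells (log2 fold change 0.20 ± 0.05, edgeR adjusted p = 0.0209). RRM2, the small subunit of ribonucleotide reductase, had 251, 255 and 245 CPM in sgERG cells, against 214, 228 and 229 CPM in sgCtrl cells (log2 fold change 0.16 ± 0.04, edgeR adjusted p = 0.0231). In MCM7 and RRM2 the lowest sgERG library was above the highest sgCtrl library, and sgCtrl replicate 1 was the lowest of all. CDC45 had 75.1, 73.3 and 82.9 CPM in sgERG cells, against 66.7, 69.4 and 67.5 CPM in sgCtrl cells (log2 fold change 0.18 ± 0.05, edgeR adjusted p = 0.0410). It was the one member called in opposite directions against the controls of the 2 experiments, lower with ETV6-R399C and higher with sgERG, and the difference between those effects was not tested. UBE2C, the ubiquitin-conjugating enzyme of the anaphase-promoting complex, had 70.1, 71.8 and 73.0 CPM in sgERG cells, against 63.4, 62.2 and 66.1 CPM in sgCtrl cells (log2 fold change 0.16 ± 0.04, edgeR adjusted p = 0.0281). AURKB, the kinase of the chromosomal passenger complex, had 92.9, 92.9 and 92.4 CPM in sgERG cells, against 80.6, 84.5 and 85.3 CPM in sgCtrl cells (log2 fold change 0.15 ± 0.04, edgeR adjusted p = 0.0310). CCNF had 129, 126 and 130 CPM in sgERG cells, against 115, 118 and 113 CPM in sgCtrl cells (log2 fold change 0.15 ± 0.04, edgeR adjusted p = 0.0262). For these 3 mitotic genes the groups did not overlap, and the spread within sgERG was narrower than the step between groups.

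Of the 14 members called with ETV6-WT, only CCNF was also called with sgERG, where 14.6% of all genes were called. GINS2, CDT1, BUB1, TOP2A and CENPE were among those that did not pass in sgERG cells. The difference between the experiments was not tested. GINS2 had 49.6, 45.3 and 48.9 CPM in sgERG cells against 43.9, 44.4 and 44.3 CPM in sgCtrl cells (log2 fold change 0.12 ± 0.05, edgeR adjusted p = 0.157). CDT1 had 408, 424 and 478 CPM in sgERG cells, against 396, 415 and 409 CPM in sgCtrl cells (log2 fold change 0.10 ± 0.06, edgeR adjusted p = 0.262). BUB1, TOP2A and CENPE had log2 fold changes of -0.01 ± 0.04, 0.01 ± 0.04 and 0.00 ± 0.07. sgERG replicate 3 stood apart from its group, with counts of all genes differing from replicates 1 and 2 by a chi-square of 14.68 and 12.92 per degree of freedom, against 2.89 to 6.94 for the other pairs. Its long members averaged -0.11 on the log2 scale, and 7 members were called without it. The class difference was 0.43, 0.43 and 0.52 in sgERG cells, of which 0.52 is replicate 3, against 0.37, 0.44 and 0.40 in sgCtrl cells, so the groups overlapped.

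Levels per length were read from TPM. PCNA led in ETV6-WT, ETV6-R399C and tagBFP cells, with 607 ± 5.74, 563 ± 18.4 and 591 ± 9.42 TPM, followed by MCM7 at 406 ± 9.86, 413 ± 4.03 and 390 ± 6.59 TPM. TTK, a spindle checkpoint kinase, was lowest at 26.4 ± 1.02, 26.9 ± 1.90 and 26.1 ± 0.773 TPM. In sgERG and sgCtrl cells MCM4 led, with 446 ± 4.85 and 437 ± 25.6 TPM, and CCNE2, a cyclin of S-phase entry, was lowest at 11.7 ± 1.35 and 11.6 ± 0.752 TPM. PCNA ranked 8th there, at 268 ± 10.7 and 251 ± 9.47 TPM, whereas CDT1 was higher than in the first experiment, at 289 ± 23.3 and 263 ± 1.28 TPM against 164 ± 17.3 TPM in tagBFP cells. Vector, sorting, induction time and experiment differ together between the control populations, so they cannot be told apart.

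Genes of the same processes outside the 43 were counted from lists of other replication genes, other mitotic genes, E2F and DREAM regulators, and checkpoint genes. Of 53 other replication genes tested, 9 rose and 12 fell with ETV6-WT, 1 rose and 23 fell with ETV6-R399C, 18 were higher and 1 lower in ETV6-WT relative to ETV6-R399C cells, and 8 rose and none fell with sgERG by edgeR. With ETV6-WT these were 17.0% higher and 22.6% lower, near the 17.6% and 18.9% of all genes, while the 43.4% lower with ETV6-R399C stood against 22.1% of all genes, the 34.0% higher between the forms against 12.1%, and the 15.1% higher with sgERG against 6.89%. At an unadjusted p below 0.05, 18 of the 53 were higher and 1 lower with sgERG, and DESeq2 called 8 higher and 0 lower. POLD2, a subunit of DNA polymerase delta, fell to 159 ± 7.45 CPM in ETV6-R399C cells and to 170 ± 1.98 CPM in ETV6-WT cells, against 201 ± 3.81 CPM in tagBFP cells. MCM10, a helicase cofactor, was at 155 ± 0.525 CPM in ETV6-WT cells against 132 ± 5.64 CPM in ETV6-R399C cells (log2 fold change 0.24 ± 0.03, edgeR adjusted p = 3.7e-04), but its fold change was 0.10 and not called when transcript lengths were modelled (edgeR adjusted p = 0.632). Of 68 other mitotic genes tested, 38 rose and 5 fell with ETV6-WT, 14 rose and 12 fell with ETV6-R399C, 28 were higher and 1 lower between the forms, and 4 rose and 1 fell with sgERG. The 55.9% higher with ETV6-WT stood against 17.6% of all genes and the 41.2% higher between the forms against 12.1%. With ETV6-R399C the 20.6% higher and 17.6% lower were near the 18.8% and 22.1% of all genes, as were the 5.9% higher with sgERG beside 6.89%. KIFC1, a motor that gathers spindle poles, had the largest changes of the list against tagBFP. It had 11.7, 32.8 and 21.1 CPM in ETV6-WT cells and 17.5, 20.3 and 20.3 CPM in ETV6-R399C cells, against 35.1, 38.3 and 42.1 CPM in tagBFP cells. The log2 fold changes were -0.80 ± 0.25 with ETV6-WT (edgeR adjusted p = 0.0251) and -0.99 ± 0.25 with ETV6-R399C (edgeR adjusted p = 0.00766). With transcript lengths modelled they were -0.16 (edgeR adjusted p = 0.394) and -0.39 (edgeR adjusted p = 0.0379). The ETV6-WT value lay between -1.24 (without ETV6-WT replicate 2) and -0.52 (without ETV6-WT replicate 1), and was not called by DESeq2 (adjusted p = 0.0605), without ETV6-WT replicate 3 (edgeR adjusted p = 0.0771) or without tagBFP replicate 3 (edgeR adjusted p = 0.0627). BUB3, a spindle checkpoint protein, had 1134 ± 11.5 CPM in ETV6-WT cells and 884 ± 14.1 CPM in ETV6-R399C cells, against 826 ± 33.5 CPM in tagBFP cells (log2 fold change 0.46 ± 0.03, edgeR adjusted p = 4.1e-07, for ETV6-WT against tagBFP).

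Upstream regulators were also measured. Of 20 E2F, DREAM and MuvB regulators, 5 rose and 3 fell with each ETV6 form. These shares, 25% higher and 15% lower, were near those of all genes, 17.6% and 18.9% with ETV6-WT and 18.8% and 22.1% with ETV6-R399C. E2F2, an activating E2F, had 386 ± 11.8 CPM in ETV6-WT cells and 373 ± 0.394 CPM in ETV6-R399C cells, against 251 ± 1.77 CPM in tagBFP cells (log2 fold changes 0.62 ± 0.03 and 0.57 ± 0.03, edgeR adjusted p = 1.1e-08 and 3.7e-08). E2F1 rose by 0.39 ± 0.03 and 0.32 ± 0.03 on the log2 scale with the same forms, and E2F4, mostly a repressor partner, fell by 0.25 and 0.29. Of 16 checkpoint and brake genes, 6 rose and none fell with ETV6-WT, by edgeR, and 7 rose and 1 fell with ETV6-R399C, or 37.5% and 43.8% higher against 17.6% and 18.8% of all genes. With ETV6-WT, 7 of the 16 were higher and 0 lower at an unadjusted p below 0.05, and DESeq2 called 5 higher and 0 lower. CDKN1B, the cyclin-dependent kinase inhibitor p27, had 114 ± 1.57 CPM in ETV6-WT cells and 113 ± 3.55 CPM in ETV6-R399C cells, against 74.6 ± 1.60 CPM in tagBFP cells. BTG2, an antiproliferative gene, had log2 fold changes of 1.34 ± 0.04 and 1.62 ± 0.04 (edgeR adjusted p = 1.3e-09 and 4.7e-10). In ETV6-WT relative to ETV6-R399C cells, edgeR called CDKN1C, BTG1 and BTG2 lower and 0 of the 16 higher. That was 18.8% lower, against 9.29% of all genes. At an unadjusted p below 0.05, 3 were higher and 4 lower. BTG2 differed by -0.27 ± 0.04 (edgeR adjusted p = 5.0e-04). With sgERG, 4 of the 16 were higher and 0 lower by edgeR, also at an unadjusted p below 0.05 and by DESeq2. That was 25.0% higher, against 6.89% of all genes. In sgERG cells CDKN1C, the inhibitor p57, had 15.4 ± 0.905 CPM against 9.29 ± 0.571 CPM in sgCtrl cells (log2 fold change 0.73 ± 0.08, edgeR adjusted p = 1.6e-04).

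Across the 43 members, 11 were called in none of the 4 comparisons: MCM2, MCM5, CCNE2 and 8 mitotic genes. When transcript lengths were modelled, MCM2 and MCM5 passed for sgERG (log2 fold change 0.18 each, edgeR adjusted p = 0.043 and 0.0387). Some members share exons with a neighbour, so that reads could be split between genes. On the opposite strand these are MCM2, MCM7, GINS2, TYMS, CCNE2, CCNA2, PLK1, KIF20A and FOXM1, and on the same strand BUB1B and CENPA. The kit kept strand, but the strand setting used in counting is not given in the sources used here. BUB1B shares exons with a read-through transcript, BUB1B-PAK6, and its difference between the 2 ETV6 forms turned to -0.04 when transcript lengths were modelled.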

How the data were processed

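RNA-seq libraries of Reh cells were made with a directional kit, per the labels' protocols. Per the file headers, the authors deposited, for each of 167268 transcripts, estimated counts (NumReads), TPM values and effective lengths; the submitters' processing notes name Salmon 0.11.3 and the hg38 build. Transcripts were assigned to genes by identifier with GENCODE 29. The 6.67 to 7.56% of reads in transcripts without a match were left out. Estimated counts were summed per gene and rounded to whole numbers. edgeR 4.0.16 (R 4.3.3, TMM scaling, filterByExpr, quasi-likelihood test, Benjamini-Hochberg adjustment over all genes tested, threshold 0.05) was fitted to the 9 libraries of the ETV6 experiment and, separately, to the 6 of the ERG experiment. CPM values use each fit's scaling; TPM values are as deposited. DESeq2 1.42.0 and the other alternatives are in the closing section. The fit was tested on simulated data whose changes were larger than those of most members. It therefore does not cover changes as small as most reported here. Replicate libraries differed beyond sampling noise and were counted separately. The biological coefficient of variation was 4.95% and 6.24%.

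The members and gene lists were chosen with earlier results of these data known. Members named with values in every library were those with the largest change among those called in an experiment (up to 6 replication and 8 mitotic), plus any called in opposite directions; other values are given for contrast. Genes named from the other lists were taken from the up to 4 per list and comparison with the largest called changes at 5 CPM or more. Windows come from the RefSeq promoter table on GRCh38.p14; no members' proteins are shown.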

Additional observations from a re-analysis of the deposited data

Results flagged for a closer look

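Of the 43 members, 15 differed between the ETV6-WT and ETV6-R399C effects in the direct edgeR test of ETV6-WT against ETV6-R399C, all with a higher level in ETV6-WT cells. For replication genes the log2 fold changes were 0.13 for MCM3, 0.21 for MCM4, 0.09 for CDC6, 0.21 for CDC45, 0.11 for GINS1, 0.21 for GINS2, 0.19 for PCNA and 0.17 for TYMS. For mitotic genes they were 0.10 for PLK1, 0.16 for BUB1, 0.12 for BUB1B, 0.13 for TOP2A, 0.18 for BIRC5, 0.14 for CENPE and 0.12 for NUSAP1. Some of these calls were not stable. In 12 alternative analyses, CDC6 kept its call in 1, GINS1 in 3, CENPE in 5, and PLK1 and BUB1B in 6 each.

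GINS1, a subunit of the GINS complex, lay on opposite sides of the control in every library. It had 91.0, 93.0 and 95.5 CPM in ETV6-WT cells and 86.8, 85.1 and 87.8 CPM in ETV6-R399C cells, against 89.3, 90.4 and 90.4 CPM in tagBFP cells. Neither difference from tagBFP passed the edgeR test on its own (log2 fold change 0.05 ± 0.03, adjusted p = 0.214, for ETV6-WT and -0.06 ± 0.03, adjusted p = 0.156, for ETV6-R399C). The direct difference of GINS1 between the forms was called in only 3 of 12 alternative analyses, and not by DESeq2.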

How the results depend on the processing

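Calls present in all 12 alternatives were 7 of 14 for ETV6-WT against tagBFP, 10 of 20 for ETV6-R399C against tagBFP, 6 of 15 for ETV6-WT against ETV6-R399C and 0 of 6 for sgERG against sgCtrl. Modelling transcript length gave 8, 12, 7 and 3 members called in these comparisons, and 2913, 3427 and 1236 of all genes in the first 3. In the first 3 comparisons all of these members were among those called without it, but for sgERG only MCM7 was, and MCM2 and MCM5 were added; BUB1B turned to -0.04 between the ETV6 forms. With that setting the replication and mitotic medians were 0.03 and 0.10 (difference -0.06) for ETV6-WT, a mitotic median of 0.03 (difference -0.14) for ETV6-R399C, a mitotic median of 0.07 (difference 0.05) between the forms, and a replication median of 0.07 (difference 0.02) for sgERG. Without the filter on low counts the medians were 0.00 and 0.04 for ETV6-WT, and the mitotic one 0.07 between the forms. Upper-quartile scaling gave mitotic medians of -0.00 for ETV6-R399C and 0.06 between the forms. On log2(TPM + 1) the class difference was -0.08 for ETV6-WT, -0.12 for ETV6-R399C and 0.05 between the forms. The cause of these shifts was not tested.

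Leaving out 1 library moved the ETV6-WT replication median between -0.02 and 0.03, the mitotic one between 0.02 and 0.06 and their difference between -0.06 and -0.03. For ETV6-R399C, 12 to 20 members were called, with replication medians of -0.13 to -0.06 and mitotic medians of -0.04 to 0.01. Between the forms 7 to 18 members and 2008 to 3110 genes were called, with mitotic medians of 0.06 to 0.10. For sgERG 0 to 7 members and 1160 to 2302 genes were called. Replicate numbers did not pair libraries: deviations of same-numbered libraries correlated at -0.05 to 0.07 and -0.10 to 0.02. A replicate block gave 14, 20, 15 and 1 members called. Depth did not limit detection of the members, while 3 libraries a group limit the precision of changes this small.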
